A study of Mus musculus with 20 samples.

Results

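Small RNA seeds that were almost absent from the day 7 testis and present in purified spermatocytes were examined in wild-type C57Bl/6J mice. A seed is the stretch of bases 2 to 8 of a small RNA, counted from its 5′ end, and each row of the small RNA table is 1 such sequence of 7 bases with its count in every library. The seeds were chosen by their raw counts: at most 5 summed over the 2 day 7 libraries and at least 50 summed over the 4 spermatocyte libraries. This gave 33 of 4940 rows, or 13.6% of the 243 rows with at least 50 spermatocyte counts. Whole testes came from pups of day 1, day 3 or day 7 after birth. Spermatocytes came from adults of 70 to 80 days, in a leptotene/zygotene and a pachytene fraction separated by how fast cells of different size settle. Each group had 2 biological replicates, sequenced as small RNA and as RNA. All mice were wild type and untreated, and leptotene and zygotene cells were collected as a single fraction. Leptotene and zygotene are early steps of meiotic prophase, and pachytene, in which paired chromosomes recombine, follows. Purification, adult age and meiotic stage all change between the day 7 testis and the fractions, so they cannot be told apart.

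MicroRNAs are short RNAs cut from hairpin precursors, and their seed sets which messenger RNAs they bind. Male germ cells also make PIWI-interacting RNAs, which are longer, are cut from long single-stranded precursors, often begin with U, and become abundant at pachytene together with the PIWI protein Piwil1. A seed carries neither the length of its RNA nor its locus, so these kinds of RNA cannot be told apart in a table of seeds.

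The sequences most of these seeds shared are the RefSeq hairpins below (build GRCm38.p6), shown because they hold the seeds close together and partly overlapping. Capitals mark the bases covered by chosen seeds, and each hairpin is written 5′ to 3′ on its own strand.
Mir7217, chr17:27355738-27355799, plus strand: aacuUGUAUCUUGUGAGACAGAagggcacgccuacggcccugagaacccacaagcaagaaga
Mir7214, chr17:27317035-27317095, minus strand: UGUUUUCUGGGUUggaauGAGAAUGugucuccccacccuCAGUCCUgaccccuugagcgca
Mir468, chr6:81896599-81896676, minus strand: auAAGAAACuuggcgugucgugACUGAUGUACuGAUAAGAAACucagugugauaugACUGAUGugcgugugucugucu
Mir7241, chr9:67727717-67727780, minus strand: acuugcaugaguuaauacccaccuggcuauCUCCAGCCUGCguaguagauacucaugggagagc
Mir7242, chr9:67729499-67729577, minus strand: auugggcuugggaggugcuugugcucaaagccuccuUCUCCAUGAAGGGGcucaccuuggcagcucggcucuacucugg
Mir7218, chr17:27358097-27358155, plus strand: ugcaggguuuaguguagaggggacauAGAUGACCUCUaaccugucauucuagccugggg
Mir7210, chr14:24088877-24088930, plus strand: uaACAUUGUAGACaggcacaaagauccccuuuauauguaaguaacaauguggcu

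Of the 33 seeds, 25 could be laid on the first 5 of these hairpins, and they held 92.3% of the seeds' spermatocyte counts. Mir7217 and Mir7214 took 7 seeds each, Mir468 and Mir7241 took 4 each, and Mir7242 took 3. Mir7218 and Mir7210 took 2 seeds each, which brought the total to 29. Of the 1005 hairpins in the RefSeq table, 778 (77.4%) held no chosen seed, 10 held 4 or more, and only Mir7217 and Mir7214 held 7. The placement gave each seed to the hairpin that held the most seeds not yet placed and was devised after the seeds were seen, so it is a description with no test. A sequence of 7 bases is short: each chosen seed occurred in 2 to 20 hairpins, with a median of 9, and 99.5% of all rows occurred in some hairpin. The reads may therefore come from other loci.

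Several hairpins lay near each other. Mir7218 began 2.30 kb after Mir7217 on chromosome 17, and Mir7214 lay 38.6 kb from Mir7217 on the other strand. Mir7241 and Mir7242 lay 1.72 kb apart on chromosome 9, and both overlapped the span of the protein-coding gene C2cd4b, without regard to strand. Exons and introns were not analysed here. On chromosome 6, Mir468 lay 0.935 kb from Mir7232, whose 5p miRNA has the seed ACAUGGA, another of the 33.

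Overlap between seeds went further than a shared hairpin. In 4 chains, each seed was the one before it moved by 1 base, and the chains took in 13 of the 33 seeds. The longest was UGUGAGACAGA, which ran through 5 seeds and occurred in Mir7217 alone among the hairpins. Its seeds had 2922 counts in the spermatocyte libraries and 5 in the testis libraries, and the spermatocyte counts were 122 for UGUGAGA, 230 for GUGAGAC, 863 for UGAGACA, 1625 for GAGACAG and 82 for AGACAGA. CUCCAGCCU joined 3 seeds with 2002 spermatocyte counts and 4 testis counts, and occurred in Mir7241 alone. UUCUGGGUU joined 3 seeds and occurred in Mir7214, Mir882 and Mir5617, and UGUUUUCU joined 2 seeds and occurred in 8 hairpins, Mir7214 among them. Seeds of a chain are not independent observations, because a small RNA whose 5′ end varies by 1 base is spread over several rows.

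The base just before the seed, which is the first base of the RNA if a row is bases 2 to 8, was U for 19 of the 24 seeds on the first 5 hairpins that have such a base (79.2%). These 19 held 83.4% of the 24 seeds' spermatocyte counts. Of the 309 possible positions in the same hairpins, 84 (27.2%) had U before them, and over all hairpins the share was 26.9%. Among RefSeq mature miRNAs, 717 of 1738 (41.3%) began with U. No seed had A in this place, 3 had G and 2 had C. On the first 5 hairpins the implied 5′ ends mostly lay away from annotated miRNAs. Of 25, 1 coincided with the start of a mature miRNA, and 21 were more than 3 bases from the nearest one. The median distance was 15 bases and the maximum 38.

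The annotated miRNAs of these hairpins had few counts of their own. The seed of miR-7217-5p, ACUUGUA, had 5 counts over the 4 spermatocyte libraries, and that of miR-7217-3p, GAGAACC, had 0. GAGACAG, which lies in the same hairpin and matches neither, had 1625. The seeds of miR-7241-5p and miR-7214-3p had 0 spermatocyte counts, and that of miR-7242-3p had 14. The exceptions were miR-468-5p, whose seed ACUGAUG had 825 counts and is one of the 33, and miR-7210-5p. The seed of miR-7210-5p, AACAUUG, had 23579 counts, of which 5712 and 4716 were in the leptotene/zygotene replicates and 7878 and 5273 in the pachytene replicates. With 17 counts at day 7 it missed the rule, while ACAUUGU, the same sequence moved by 1 base, met it with 66 spermatocyte counts.

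In all, 7 of the 33 seeds (21.2%) equalled the seed of a RefSeq mature miRNA. The share was 22.8% over all 4940 rows and 67.1% over the 210 other rows with at least 50 spermatocyte counts. The mature sequences are shown with the seed in capitals, as these are the annotated miRNAs whose names the seeds could carry.
miR-468-5p, chr6:81896629-81896655, minus strand: gACUGAUGuacugauaagaaacucagu
miR-6988-3p, chr19:6051371-6051392, plus strand: uGACCUCUguaucuccugccag
miR-3062-5p, chr11:68990638-68990659, minus strand: gGAGAAUGuaguguuaccguga
miR-3090-5p, chr2:133564722-133564742, plus strand: gUCUGGGUggggccugagauc
miR-881-5p, chrX:66801986-66802007, minus strand: cAGAGAGAuaacagucacaucu
miR-7234-5p, chr7:73819590-73819612, plus strand: uUGUUUUCuccaaagacguuucu
miR-7232-5p, chr6:81895640-81895663, minus strand: uACAUGGAugauuguuuuuccaag
No pair of these shares a seed. The seeds of miR-6988-3p, miR-3062-5p, miR-3090-5p and miR-7234-5p also lie on Mir7218 or Mir7214, so their counts cannot be assigned to either source. The gene of miR-881-5p belongs to a cluster on the X chromosome that is known for its miRNAs in spermatogenic cells.

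A minority of the seeds resembled an abundant row. Of the 33, 7 (21.2%) were a row among the 100 with the highest mean level moved by 1 base, against 31.9% of the 210 other rows with at least 50 spermatocyte counts and 8.42% of all rows. For 3 of these 7 the abundant row was itself one of the 33, CUCCAGC or GAGACAG, and for the other 4 it was not. AGAGAGA, for example, is GAGAGAU of miR-741-3p moved by 1 base, and AGAUGAC is GAGAUGA moved by 1 base. A further comparison with those 100 rows found 3 seeds (9.09%) that differed from one by a single base, against 19.0% and 13.9%. The share of G and C was 48.1% in the 33 seeds, 47.1% in the 210 other rows and 49.7% in all rows.

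Library depth was uneven. Small RNA counts per library ran from 1421742 to 11061273 in the testis libraries and from 112967 to 820461 in the spermatocyte libraries. Leptotene/zygotene replicate 1 alone held 59.0% of all counts in the spermatocyte libraries, but 3575 of the 13693 counts of the 33 seeds there. The seeds thus had their near-absence measured in the deeper libraries. The rule itself fixes a difference of at least 86.1-fold, since 5 counts at day 7 are 0.417 CPM (counts per 1000000, here of the pooled libraries) and 50 in spermatocytes are 35.9 CPM. No test of day 7 against a spermatocyte fraction is therefore given.

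The 33 seeds made up 0.436% of counts in leptotene/zygotene replicate 1 (exact 95% binomial interval 0.422% to 0.450%) and 1.23% in replicate 2 (1.16% to 1.29%). In pachytene they made up 1.91% in replicate 1 (1.87% to 1.96%) and 1.93% in replicate 2 (1.85% to 2.01%). At day 7 they had 4 and 16 counts, or 1.18 and 1.86 CPM of plain library totals (exact 95% intervals 0.321 to 3.02 and 1.06 to 3.02). Such intervals cover counting error only. Because the libraries are bulk samples, fewer cells of a type and less RNA per cell cannot be told apart in any of these levels. By these plain totals the leptotene/zygotene replicates differ by more than counting error and the pachytene replicates do not. With TMM scaling, which corrects for differences in composition between libraries, the sums were 4988 and 7323 CPM in leptotene/zygotene and 18796 and 11560 in pachytene, so which replicates agree turns on the scaling. Over the pooled libraries the seeds had 13693 counts in spermatocytes and 20 at day 7.

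All 33 seeds had a count in each of the 4 spermatocyte libraries, and 26 had at least 5 in each. Among all 243 rows with at least 50 spermatocyte counts, 233 had a count in each and 185 had at least 5. The counts were concentrated in a few seeds: AAGAAAC had 1949, CCAUGAA had 1821, CUCCAGC had 1652 and GAGACAG had 1625, together 51.5% of the total, and the median seed had 184. At day 7, 24 of the 33 had no count, which allows up to 0.250 CPM over both libraries.

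The thresholds cut through a continuous range of values. Just inside the spermatocyte threshold were ACAUGGA with 51 counts and GAUAAGA with 58, and just outside it GCCAGGC with 49 and AGCUUUG with 47, both without a count at day 7. On the day 7 side, AAGAAAC and GACCUCU, with 4 counts each, were inside, and UUUGUUC with 6 and UGUUCGU with 7 were outside, with 286 and 87 spermatocyte counts.

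The day 1 and day 3 testis libraries took no part in the choice. There the 33 seeds had 50 counts in all, 2.16 CPM of the pooled total, and 18 of them had none. By library they had 6 and 20 counts at day 1, or 4.22 and 9.09 CPM of plain totals, and 14 and 10 at day 3, or 1.27 and 1.17 CPM. The day 1 libraries were both above the day 3 and day 7 libraries, which did not exceed 1.86 CPM. The spermatocyte library with the lowest value, leptotene/zygotene replicate 1, had 4357 CPM.

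A count of 0 in every testis library held for 16 of the 33 seeds, so the other 17 did not appear in spermatocyte fractions alone. AAGAAAC, which lies on Mir468, had the most: 3 and 9 counts at day 1, 5 and 0 at day 3, and 1 and 3 at day 7. GACCUCU had 0 and 1 at day 1, 3 and 3 at day 3, and 0 and 4 at day 7, and no other seed had more than 5 counts in days 1 and 3 together. ACAUGGA had 5 there, CUCCAGC had 4, and GAGAAUG and AGAUGAC had 3 each. A test of day 3 against day 1 says almost nothing about the seeds, because they passed the filter on low counts through their spermatocyte counts, and in a fit to only these 2 stages 1 of the 33 could be tested. In the fit to all libraries edgeR called 0 of 745 rows (0%), with 144 at an unadjusted p under 0.05, and DESeq2 called 83. For AAGAAAC, the seed with the most counts there, the log2 change was -3.53 ± 1.10 (SE, n = 2 against 2, adjusted p = 0.138 by edgeR) and -3.75 ± 1.26 (adjusted p = 0.0259 by DESeq2), and these values rest on 17 counts.

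Markers of other cells were measured in the same libraries, as CPM of library sizes scaled by TMM. Of the 4 listed markers of smooth muscle and fibroblasts, 2 were looked up, miR-199a-3p and miR-214-3p, and their sum was 12876 to 20072 CPM in testis libraries and 339 to 1133 in spermatocytes. The gonadal somatic miR-202-5p was also higher in testis, at 3153 to 7793 CPM against 304 to 958 in spermatocytes. The 2 red blood cell markers looked up of 3, miR-451a and miR-144-3p, summed to 656 and 314 CPM in leptotene/zygotene against 32.0 and 5.30 in pachytene, and to 86.6 to 398 in testis. The endothelial miR-126a-3p, 1 of 2 listed, had 1020 and 69.8 CPM against 970 and 127, in the same order, and 400 to 545 in testis. The 3 white blood cell markers looked up of 4 summed to 162 and 14.97 CPM against 34.9 and 21.2, and to 27.2 to 54.1 in testis. Leptotene/zygotene replicate 1 thus exceeded every testis library in these 3 lists. The shared seed of miR-34b-5p and miR-449a-5p, known from meiotic and later germ cells, had 304 to 615 CPM in testis and 108245 to 236172 in spermatocytes, and 9 seeds of the spermatogenic X cluster summed to 2896 to 21932 and 55949 to 133848. The part of these cells in the seeds' levels was not tested.

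In the RNA libraries with the same labels, the Sertoli cell gene Amh had 430 to 1233 CPM in testis and 0 to 1.38 in spermatocytes. Sox9, also listed for Sertoli cells, ran from 104 to 248 CPM in testis. Its spermatocyte levels ran from 0.300 CPM (leptotene/zygotene replicate 2) to 14.4 (pachytene replicate 1). For the Leydig cell gene Hsd3b1 the testis range was 177 to 502 CPM and the spermatocyte range 0.401 to 3.46. How much somatic RNA the fractions held was not tested. Of the 2 listed red blood cell genes, Hbb-b1 had 0 CPM in every spermatocyte library and at most 1.30 in testis. Alas2 had 6.81 and 3.30 CPM in leptotene/zygotene, 3.25 and 6.19 in pachytene, and 2.46 to 10.5 in testis. Messages of spermatids, the haploid cells after meiosis, were present in both fractions and higher in the earlier one. Prm1, a sperm protamine, had 5496 and 10595 CPM in leptotene/zygotene and 774 and 688 in pachytene, and Prm2 had 21727 and 21764 against 2560 and 1390. Tnp1, a transition protein that precedes the protamines on sperm DNA, had 7066 and 8351 CPM against 850 and 562. At day 7 each of the 3 was at or under 0.276 CPM, but the day 1 testis RNA had 4.07 and 4.14 CPM of Prm1, 8.99 and 9.31 of Prm2 and 3.94 and 4.31 of Tnp1. In day 3 replicate 2 they had 3.17, 6.59 and 3.50 CPM, and in replicate 1 at most 0.0999. Among the testis small RNA libraries, those of day 1 had the highest levels of the 33 seeds, from 6 and 20 counts. At day 3 the seeds had 1.17 CPM of plain totals in replicate 2 and 1.27 in replicate 1, from 10 and 14 counts. The part of RNA from older cells in the testis counts was not tested. The labels give the leptotene/zygotene fraction a purity judged by microscopy, and these values go against a fraction free of later germ cell RNA. Of the 6 listed spermatocyte genes, 2 had both pachytene libraries above both leptotene/zygotene libraries and 4 overlapped. Piwil1 had 137 and 120 CPM in leptotene/zygotene against 895 and 1466 in pachytene, and Sycp3, part of the axis of meiotic chromosomes, had 39.9 and 60.3 against 126 and 210. Ldhc, a lactate dehydrogenase of male germ cells, had 4134 and 7278 against 4162 and 5585, and Mael, which acts in the PIWI pathway, had 1203 and 2313 against 1311 and 1622. The synapsis gene Sycp1 had 54.0 and 105 against 60.2 and 185, and Spo11, which makes meiotic breaks, had 12.6 and 69.2 against 43.5 and 116. The part of later germ cells in the seeds' levels was not tested.

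The libraries labelled leptotene/zygotene and pachytene could be compared by a test, because the rule used the sum of the spermatocyte libraries and not the difference between fractions. With the spermatid messages given above, such a difference cannot be read as a change within meiotic prophase alone. The rule did use these same 4 libraries, and its raw sum weighs the deepest, leptotene/zygotene replicate 1, most. The share of seeds with each direction is therefore a description. Levels are again TMM-scaled CPM. All 33 seeds passed the filter on low counts, and all had a positive log2 difference of pachytene minus leptotene/zygotene, from 0.12 to 3.37 with a median of 1.51. Over the 745 rows tested, 44.6% had a positive difference and the median was 0.00. Over the 210 other rows with at least 50 spermatocyte counts, 42.9% did and the median was -0.08. Without leptotene/zygotene replicate 1, 27 of the 33 seeds had a positive difference and their median was 0.93; AAGAAAC at -0.20, CUCCAGC at -0.06 and CUGGGUU at -0.05 were among those that changed sign. With any other library left out, 30 to 33 were positive.

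Few of these differences passed the test. The shares of all rows given here are of the 745 tested, of which 243 had at least 50 spermatocyte counts. They were not computed over the 210 other rows with such counts alone. After Benjamini-Hochberg adjustment over all rows, edgeR called 1 of the 33 seeds higher in pachytene, against 0.134% of all rows, and none lower. At an unadjusted p under 0.05 there were 20 of 33 seeds, against 87 of 745 rows (11.7%). Because 13 of the 33 lie in chains of overlapping seeds, counts of seeds here are not counts of independent observations. DESeq2 called 7 of 33 higher, against 2.28% of all rows. Their log2 differences by DESeq2 were 3.42 for GAAGGGG, 3.19 for UGUAGAC, 2.81 for GAGAAUG, 1.89 for GUUUUCU, 2.03 for UGUAUCU, 1.36 for CUUGAUC and 1.93 for UGUGAGA. Both pachytene libraries lay above both leptotene/zygotene libraries for 25 of the 33 seeds, against 15.7% of all rows, and the reverse held for none. That count was 23 with plain library sizes, 22 with median-ratio factors and 15 with upper-quartile factors. Upper-quartile factors moved the median of all rows to -0.24. Relative to it the seeds' median was 1.38, and 31 of 33 seeds kept a positive difference; with DESeq2, 32 did.

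GAAGGGG, on Mir7242, was the seed that edgeR called. It had 46.0 and 29.9 CPM in leptotene/zygotene and 523 and 302 in pachytene, from 33, 6, 180 and 57 counts, and a single count over the 6 testis libraries. The groups did not overlap, and the log2 difference was 3.37 ± 0.50 (SE, n = 2 against 2, edgeR adjusted p = 0.0244). The call was lost without leptotene/zygotene replicate 1 (adjusted p = 0.279), pachytene replicate 1 (0.0774), day 7 replicate 1 (0.0634) or day 7 replicate 2 (0.0519), with differences of 2.97 to 3.33, and in a fit to only the 2 fractions (0.0743).

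Mir7242 also holds CCAUGAA, the second most abundant of the 33, which had no count in any testis library. It had 610 and 1103 CPM in leptotene/zygotene and 2827 and 1007 in pachytene. These groups overlapped, as pachytene replicate 2 lay below leptotene/zygotene replicate 2, and the log2 difference was 1.17 ± 0.61 (SE, edgeR adjusted p = 0.500). UCUCCAU, the other seed there, had 177 counts and a difference of 1.58. Differences on this hairpin thus ran from 1.17 to 3.37 although its 3 seeds overlap in a single stretch.

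The 7 seeds on Mir7217 had similar differences, from 1.51 to 2.19, and none passed edgeR's test. GAGACAG, the most abundant, had 533 and 614 CPM in leptotene/zygotene and 2661 and 1081 in pachytene, and 2 counts at day 7. The pachytene replicates were both above the earlier fraction but far apart, and the log2 difference was 1.71 ± 0.54 (SE, edgeR adjusted p = 0.209). UGAGACA, moved by 1 base from it, had 255 and 384 CPM against 1517 and 429. AUCUUGU had 153 and 190 against 924 and 419. Both had no count in any testis library, and the fractions did not overlap for either. Summed over the hairpin, the 7 seeds came to 1161 and 1402 CPM in leptotene/zygotene and 6305 and 2444 in pachytene, a ratio of means of 3.41. The neighbouring Mir7218 had a ratio of 3.55, with 131 and 150 CPM against 738 and 260. GACCUCU made up most of it, at 86.5 and 130 CPM against 654 and 217.

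The 7 seeds on Mir7214 had differences from 0.79 to 2.77. GUUUUCU had 158 and 120 CPM in leptotene/zygotene and 796 and 307 in pachytene. UUCUGGG had 180 and 289 CPM against 450 and 477, with the pachytene replicates close together. The seeds next to UUCUGGG in its chain, UCUGGGU and CUGGGUU, had differences of 0.96 and 0.79. GAGAAUG, further along the hairpin and also the seed of miR-3062-5p, had 44.6 and 19.96 CPM against 375 and 101, a difference of 2.77 ± 0.66 (SE, edgeR adjusted p = 0.141). The hairpin's sum was 635 and 723 CPM in leptotene/zygotene and 2269 and 1495 in pachytene.

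Mir7241 and Mir468 showed the smallest ratios of summed levels. CUCCAGC, the main seed of Mir7241, had 714 and 1117 CPM in leptotene/zygotene and 1874 and 1436 in pachytene, without overlap, and a log2 difference of 0.86 ± 0.56 (SE, edgeR adjusted p = 0.594). UCCAGCC, moved by 1 base, had 79.5 and 115 CPM against 349 and 254. The 4 seeds of Mir7241 summed to 858 and 1372 CPM against 2423 and 1845, a ratio of 1.91.

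On Mir468, AAGAAAC had 474 and 1831 CPM in leptotene/zygotene and 2185 and 2597 in pachytene. Replicate 2 of the earlier fraction was 3.86 times replicate 1 and near the pachytene level, and the log2 difference was 1.06 ± 0.69 (SE, edgeR adjusted p = 0.594). ACUGAUG, the miR-468-5p seed, had 691 and 314 CPM against 375 and 731. Its fractions overlapped and its difference was 0.12 ± 0.55 (SE, edgeR adjusted p = 1.0), the smallest of the 33; it was -0.17 with upper-quartile factors. GAUGUAC and GAUAAGA had 60 and 58 counts. The ratio of sums was 1.79, from 1231 and 2190 CPM against 2659 and 3477. With TMM scaling both pachytene sums exceeded both leptotene/zygotene sums on all 7 hairpins, but on 5 with plain library sizes, 4 with median-ratio factors and 1 with upper-quartile factors.

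The 2 seeds on Mir7210 differed from each other. UGUAGAC had 11.2 and 9.98 CPM in leptotene/zygotene and 95.9 and 84.8 in pachytene, from 59 counts, with close replicates in both fractions (log2 difference 3.07 ± 0.56 SE, edgeR adjusted p = 0.0875). ACAUUGU had 14.0 and 105 CPM against 43.6 and 106, and the leptotene/zygotene replicates differed 7.51-fold. The 4 seeds placed on no hairpin were CUUGAUC with 202 spermatocyte counts, GAGCUGG with 127, AGAGAGA with 116 and ACAUGGA with 51. Pachytene lay above leptotene/zygotene without overlap for all 4, with differences from 1.18 to 1.80. ACAUGGA had a single count in leptotene/zygotene replicate 2.

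Replicates differed widely for these seeds. Replicate 2 over replicate 1 had a median of 1.15 in leptotene/zygotene, with a range of 0.132 to 7.51, and a median of 0.578 in pachytene, with a range of 0.194 to 3.45. The 210 other rows with at least 50 spermatocyte counts had medians of 0.479 and 0.706. With plain library sizes the seeds' medians were 2.21 and 0.949, and leptotene/zygotene replicate 1 was then the lowest of the 4 libraries for 27 of the 33 seeds. With TMM it was the lowest for 20, and replicate 2 of that fraction for the other 13.

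RNA of the genes around the hairpins could be compared, a comparison chosen after the seeds had been placed. C2cd4b, whose span overlaps Mir7241 and Mir7242, had levels of 0.110 and 0.184 CPM at day 7. It had 3.40 and 5.01 CPM in the leptotene/zygotene libraries and 10.8 and 22.3 in the pachytene libraries. Its log2 difference of leptotene/zygotene minus day 7 was 4.83 ± 0.64 (SE). This first step was called higher by edgeR, as were 36.5% of all genes. No adjusted p is given for that call, because C2cd4b passed the filter on low counts through the fractions. The gene also overlaps hairpins of seeds chosen as almost absent at day 7, so the first call is not separate evidence. From leptotene/zygotene to pachytene C2cd4b rose by 1.91 ± 0.47 (SE, edgeR adjusted p = 0.0192), as did 9.03% of genes. The second call was lost without leptotene/zygotene replicate 2 (adjusted p = 0.0644) or pachytene replicate 2 (0.112), and in a fit to only the 2 fractions (0.0842).

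The long noncoding RNA 1700009C05Rik, which lies beside Mir468, had 0 counts in all 6 testis libraries, 15 and 72 in the leptotene/zygotene libraries, and 60 and 180 in the pachytene libraries. No test against the testis is given, because the gene passed the filter on low counts through the fractions. From leptotene/zygotene to pachytene its levels were 7.29 and 7.21 against 12.2 and 24.8 CPM, a log2 difference of 1.36 ± 0.47 (SE, edgeR adjusted p = 0.0871). The protein-coding Gcfc2, also beside Mir468, had day 7 levels of 13.01 and 14.5 CPM, against 4.86 and 10.9 in the earlier fraction and 5.90 and 14.6 in pachytene, and neither step passed the test (edgeR adjusted p = 0.208 and 0.738). Gm10505, a long noncoding RNA gene beside Mir7217 and Mir7214, was not analysed here.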

How the data were processed

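Small RNA counts per seed and RNA counts per gene were used as the authors deposited them, as raw whole-number counts. The tools named, per the submitters' processing notes, are edgeR 3.6.8, HTSeq 0.6.1, Bowtie 0.12.7 and BWA 0.7.8, with the build mm9; the rest is not given in the sources used here. In the RNA table, 5 summary categories with 44.7% to 64.5% of the reads per library were left out of library sizes and tests. The 33 seeds, the lists and the tests were chosen with earlier results of these data known.

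For each assay the 10 libraries were fitted together by stage with edgeR 4.0.16 (R 4.3.3) after filterByExpr (minimum count 10) and TMM, leaving 5 residual degrees of freedom. Calls are two-sided quasi-likelihood tests at a Benjamini-Hochberg adjusted p of 0.05. CPM use TMM-scaled library sizes unless called plain or pooled. A count of 0 allows up to 3 counts. The scripts were tested on simulated data.

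Hairpin and mature sequences are RefSeq's on GRCm38.p6 (1005 hairpins, 1738 mature miRNAs), matched by letters alone, since the authors' build differs; markers without an entry there were not looked up. Strand use in the RNA counting is not given, so overlapping genes cannot be told apart. Seeds described by rule were those with the highest lowest-library level, the most counts, a call, an annotated seed, counts in days 1 and 3, or a place at a threshold. Others were named by hairpin after their values were seen. Alternatives were DESeq2 1.42.0, other scalings, no filter, only the stages compared, a replicate block, and each library left out.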

Additional observations from a re-analysis of the deposited data

How the results depend on the processing

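The number of chosen seeds was 60 with at least 20 spermatocyte counts and 24 to 44 under the other thresholds; with 1 library left out it ran from 26 to 39. For pachytene against leptotene/zygotene, edgeR called 3 of 745 rows. DESeq2 called 27, the fit with no filter 14 and the fit to only the stages compared 0, and with 1 library left out the calls ran from 0 to 5. Of the 33 seeds, 1 was called; DESeq2 called 7, the fit with no filter 5, plain library sizes 2 and the fit to only the stages compared 0. With 1 library left out, 0 to 2 seeds were called. The seeds with both pachytene libraries above both of leptotene/zygotene fell from 25 to 15 with upper-quartile factors, a setting chosen after seeing the data. For day 3 against day 1, edgeR called 0 rows, DESeq2 83, the fit with no filter 60 and the fit to only the stages compared 27, and with 1 library left out the calls ran from 0 to 29. The seeds have too few counts there for their calls to speak of stability: 1 of the 33 could be tested in the fit to only the stages compared. AAGAAAC alone was called by DESeq2 and with no filter, which makes 1 against 0. The replicate block gave 3 rows and 1 chosen seed for pachytene against leptotene/zygotene and 0 for day 3 against day 1. Deviations of same-numbered libraries correlated at 0.159 for the first pair of groups and -0.035 for the second, and at 0.641 between leptotene/zygotene and pachytene in the RNA assay, which hints at pairing there. With 2 pairs and no label that says so, the numbers are not shown to pair the samples. In the RNA fit with the replicate block, the adjusted p of C2cd4b from leptotene/zygotene to pachytene was 0.00945 and that of 1700009C05Rik 0.0843, on the same side of the threshold as without it. A stage left with 1 library was assumed to vary like the other groups. The cause of these differences was not tested. Depth limits the spermatocyte side most: 3 counts were 25.1 and 26.6 CPM of plain totals in the shallowest leptotene/zygotene and pachytene libraries.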
